A study of Homo sapiens with 22 samples.

Results

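The MAP3K1 locus was described across 22 CUT&Tag peak lists from AN3CA cells, with most detail on an upstream element at −138.64 kb from the start of the gene. Every peak overlapping hg19 chr5:55850000-56300000, a window of 450 kb around the MAP3K1 start at chr5:56110900, was a member, which gave 388 of the 508791 peaks on chromosomes 1 to 22 and X. The locus was chosen from the lists themselves: of all sites that carried both subunits with wild-type ARID1A and neither in the empty-vector cells, its upstream element ranks highest when its places in the wild-type SMARCA4 and SMARCC1 lists, each ordered by −log10 q, are added up. Those wild-type and empty-vector values are therefore given as a description with no test. The summed rank of the upstream element was 108. The next sites were chr10:95506706-95507018 with a summed rank of 264 and chr6:91078712-91079155 with 270.

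MAP3K1 (MEKK1) is a kinase at the top of mitogen-activated protein kinase cascades, where it activates kinases upstream of JNK and ERK, and it also carries ubiquitin ligase activity. ARID1A is a large subunit of canonical BAF, a SWI/SNF complex that moves nucleosomes with the SMARCA4 ATPase on a core that includes SMARCC1. Acetylation of histone H3 at lysine 27 (H3K27ac) marks active promoters and enhancers. A peak list does not say on which gene a distal element acts. In a reference gene table of another build, used for gene order alone, ANKRD55 is the protein-coding gene before MAP3K1, and SETD9 and then MIER3 follow it.

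AN3CA is an established line of human endometrial carcinoma. The cells carried an empty vector (Empty) or expressed 1 of 5 forms of ARID1A, which were wild type (WT), a mutant of the ARID domain (DBDmut; this domain binds DNA), the truncations delIDR1 and CBR, and a hybrid with the disordered region of DDX4 (DDX4). Antibodies to SMARCA4, SMARCC1 and H3K27ac were used in all of them, and an antibody to the HA tag of the ARID1A protein in DDX4 cells. Empty had 2 replicates and every other construct a single library for each antibody. Differences between the forms of ARID1A are therefore unreplicated, and p-values measure only the spread between these samples, which may be technical, since the labels do not say whether the Empty replicates were separate cultures. Stamps in the peak names placed Empty replicate 1, WT, DBDmut, delIDR1 and CBR together, DDX4 apart, and Empty replicate 2 apart again, and they were taken for runs of the sequencer, although no label explains them. The presence of the expressed proteins was not measured in the files used here.

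The lists held 5411 to 92136 peaks. Depth estimated from the lists' own background ranged from 0.913 to 1.94 fragments per kb for SMARCA4 and from 1.32 to 3.29 for SMARCC1. For H3K27ac it was 3.59 to 6.05 in 6 libraries and 14.5 in Empty replicate 2, which had more than any other library, and it was 0.463 for HA. The fold enrichments, −log10 q values and ranks below are the authors' values, each read within its own list. Pileups are the number of fragments stacked at a peak's summit, recovered from the authors' fold and p-value, and they are also given as multiples of the genome-wide background of their library so that libraries of 1 antibody can be set side by side. Intervals are exact 95% intervals for counting error alone.

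**Figure D1:**
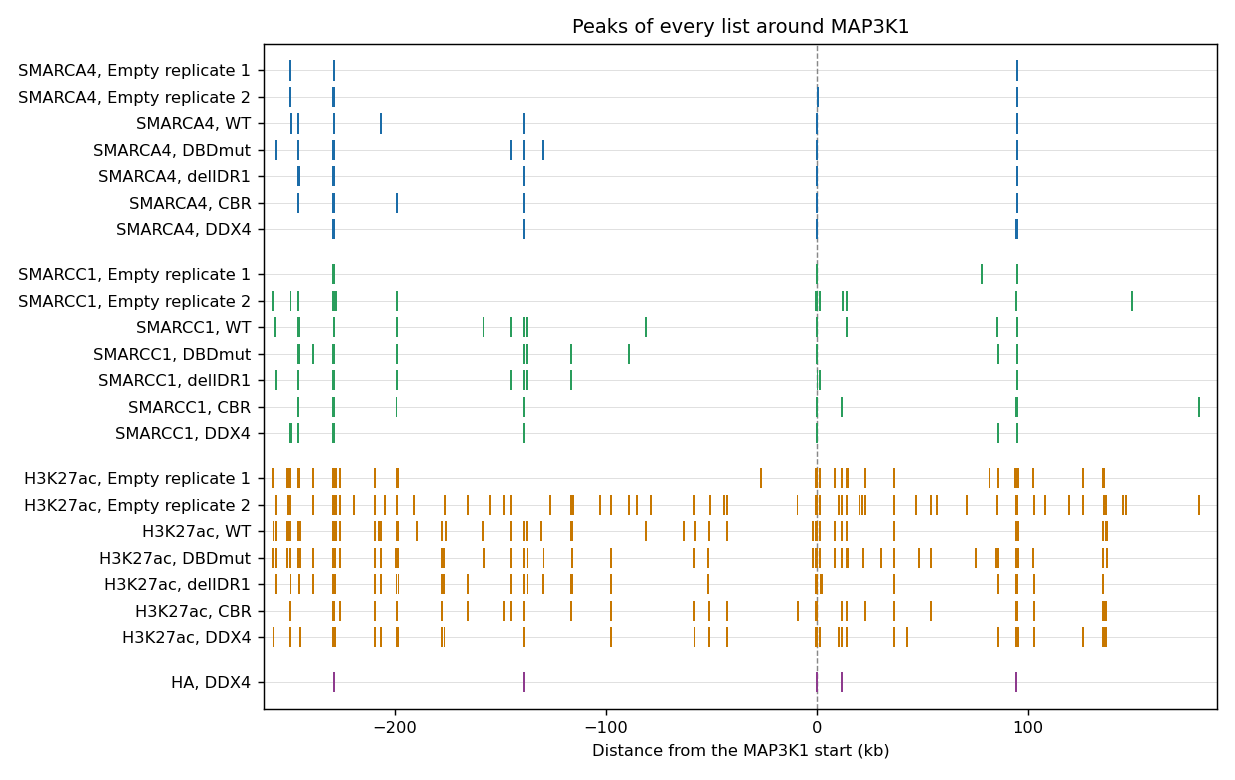
Peaks of each of the 22 lists (rows, coloured by antibody) by distance from the MAP3K1 start in kb (dashed line at 0); narrow peaks are drawn at a minimum width. SMARCA4 and SMARCC1 peaks at −138.64 kb are present in every row with a form of ARID1A and in no Empty row, while peaks near −229 kb and 94.59 kb run through all 14 SMARCA4 and SMARCC1 rows.

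Peaks of the 2 BAF subunits were few in the window and recurred at the same places. SMARCA4 had 3 and 4 peaks in the Empty replicates, 7 in WT, 9 in DBDmut, 7 in delIDR1, 5 in DDX4 and 7 in CBR. SMARCC1 had 5 and 13 peaks in the Empty replicates, 14 in WT, 13 in DBDmut, 12 in delIDR1, 9 in DDX4 and 10 in CBR, so Empty replicate 2 lay among the libraries with ARID1A. When lists of equal length were compared, WT and DBDmut had 4 SMARCA4 peaks each against 3 in each Empty replicate, and SMARCC1 had 6 in WT and 8 each in DBDmut and Empty replicate 2. Merged across these lists, the peaks formed 29 elements, of which 9 had peaks of both subunits in some lists and 7 had both in the same construct or Empty replicate. Of the 29, 14 were found in at least 2 lists and 15 in a single list. An element here is a stretch covered by overlapping SMARCA4 or SMARCC1 peaks of any library.

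A WT BAF site, where a WT SMARCA4 peak overlaps a WT SMARCC1 peak, was called gained when neither Empty replicate had a SMARCA4 or a SMARCC1 peak on it and constitutive when it met peaks of both subunits in both replicates. Of the 5 WT BAF sites in the window, 1 was gained, 2 were constitutive and 2 were mixed, against 45.0% gained, 26.5% constitutive and 28.5% mixed among 9743 sites. Counted by subunit, 4 of 7 WT SMARCA4 peaks in the window met no SMARCA4 peak of either Empty replicate, where 63.7% of all WT SMARCA4 peaks did not. For SMARCC1 the count was 8 of 14, where the share over the whole list was 57.2%. These counts use the contrast that chose the locus and are given as a description.

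That site, the upstream element, spans chr5:55972045-55972448 in the WT SMARCA4 list. It had a peak in all 16 lists of cells with a form of ARID1A, counting H3K27ac and HA, and in none of the 6 Empty lists. Its summits fell within 4 bp of each other in the 5 SMARCA4 lists, within 55 bp in the 5 SMARCC1 lists, and within 1 bp in the 5 H3K27ac lists. All 16 summits lay between chr5:55972252 and chr5:55972308, a spread of 56 bp. The same narrow position was therefore marked with each antibody and each form of ARID1A.

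**Figure D2:**
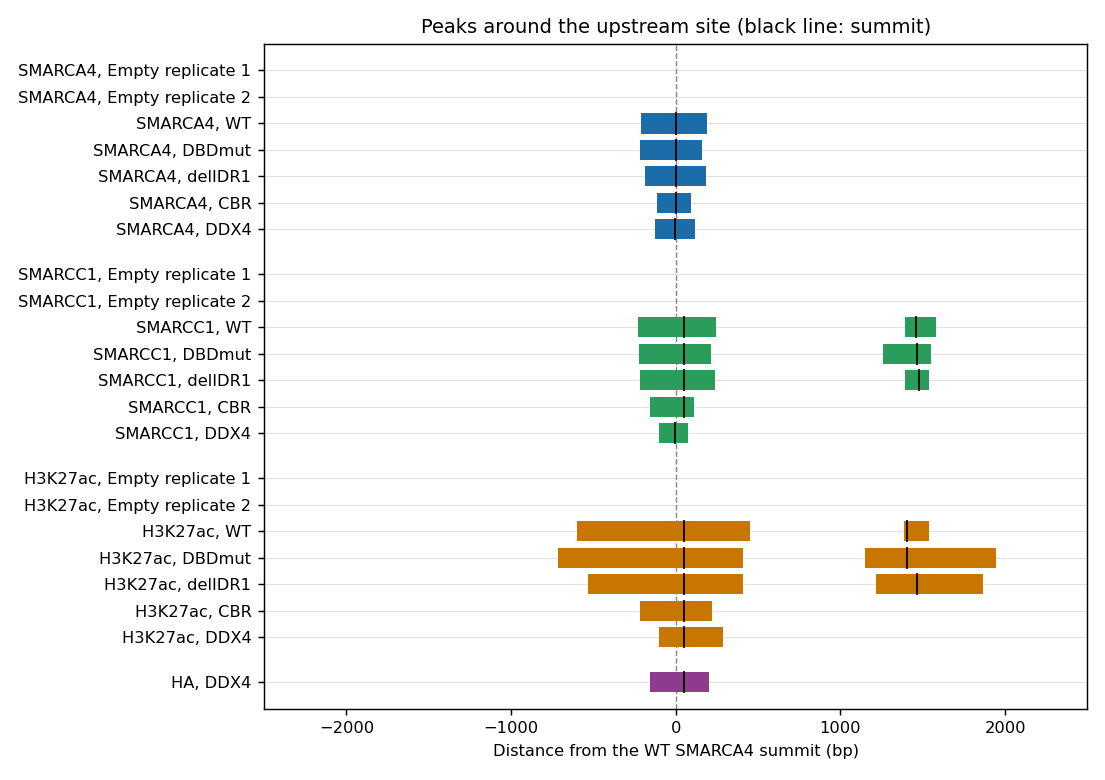
Peaks close to the WT SMARCA4 summit at the upstream site (x axis, bp), with 1 row per list, bars for peaks and black lines for summits. The 6 Empty rows are blank over this stretch, the H3K27ac bars of WT, DBDmut and delIDR1 are wider than those of CBR and DDX4, and a second SMARCC1 and H3K27ac peak follows to the right in WT, DBDmut and delIDR1.

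SMARCA4, the catalytic subunit, was high at the upstream site in 3 constructs and low in 2. The pileup at its summit was 80 fragments in WT (63.4 to 99.6), 108 in DBDmut (88.6 to 130) and 95 in delIDR1 (76.9 to 116). It was 11 fragments in CBR (5.49 to 19.7) and 14 in DDX4 (7.65 to 23.5). The intervals of the first 3 do not overlap those of the other two. In multiples of the library background these pileups were 580 in WT, 1149 in DBDmut, 826 in delIDR1, 72.9 in DDX4 and 102 in CBR. The authors' fold was 23.0, 27.7 and 25.1 in WT, DBDmut and delIDR1, and 8.10 and 8.28 in CBR and DDX4. Within its own list the peak ranked 59 of 12949 in WT, 33 of 15207 in DBDmut and 36 of 7130 in delIDR1, but 4019 of 12894 in CBR and 3469 of 8784 in DDX4.

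SMARCC1, a scaffold subunit of the BAF core, split the constructs in the same way in libraries of its own. Its summit pileup was 136 fragments in WT, 107 in DBDmut and 81 in delIDR1, but 8 in DDX4 and 15 in CBR. In multiples of background this was 304, 563 and 547 in the first 3, and 54.0 and 54.8 in CBR and DDX4. The fold was 21.2 in WT, 20.5 in DBDmut and 19.4 in delIDR1, against 8.91 in CBR and 6.68 in DDX4. Both subunits therefore separated WT, DBDmut and delIDR1 from CBR and DDX4.

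H3K27ac at the site followed the BAF subunits. Its pileup was 148 fragments over a peak of 1050 bp in WT, 183 over 1120 bp in DBDmut and 138 over 942 bp in delIDR1. In CBR it was 14 fragments over 436 bp and in DDX4 15 over 391 bp. In multiples of background the values were 229, 225 and 213 in WT, DBDmut and delIDR1, and 20.4 and 14.2 in CBR and DDX4. The WT H3K27ac summit lay 52 bp from the WT SMARCA4 summit. That is close to the median of 46 bp over 3914 gained sites with a WT H3K27ac peak, of which 74.2% had summits within 100 bp.

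Relative to WT, and scaled by library background, SMARCA4 at the site was 1.98 times as high in DBDmut (1.47 to 2.68) and 1.43 times as high in delIDR1 (1.05 to 1.94), and 0.176 times in CBR (0.0843 to 0.332) and 0.126 times in DDX4 (0.0658 to 0.224). SMARCC1 was 1.85 times the WT level in DBDmut (1.42 to 2.40) and 1.80 times in delIDR1 (1.35 to 2.39), and 0.177 times in CBR (0.0966 to 0.303) and 0.180 times in DDX4 (0.0762 to 0.365). The H3K27ac ratio to WT was 0.981 for DBDmut (0.786 to 1.23), and that of delIDR1 was 0.928 (0.731 to 1.18), intervals that include 1, and 0.0892 in CBR and 0.0622 in DDX4. With fragments per kb as the scale in place of background, the SMARCA4 ratio of DDX4 was 0.221. The site was picked for its high WT level of both subunits, which favours ratios below 1, and each ratio sets 1 library against 1 library, so these values describe the libraries and test nothing. DBDmut and delIDR1 were nevertheless above WT in both subunits on this scale.

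**Figure D3:**
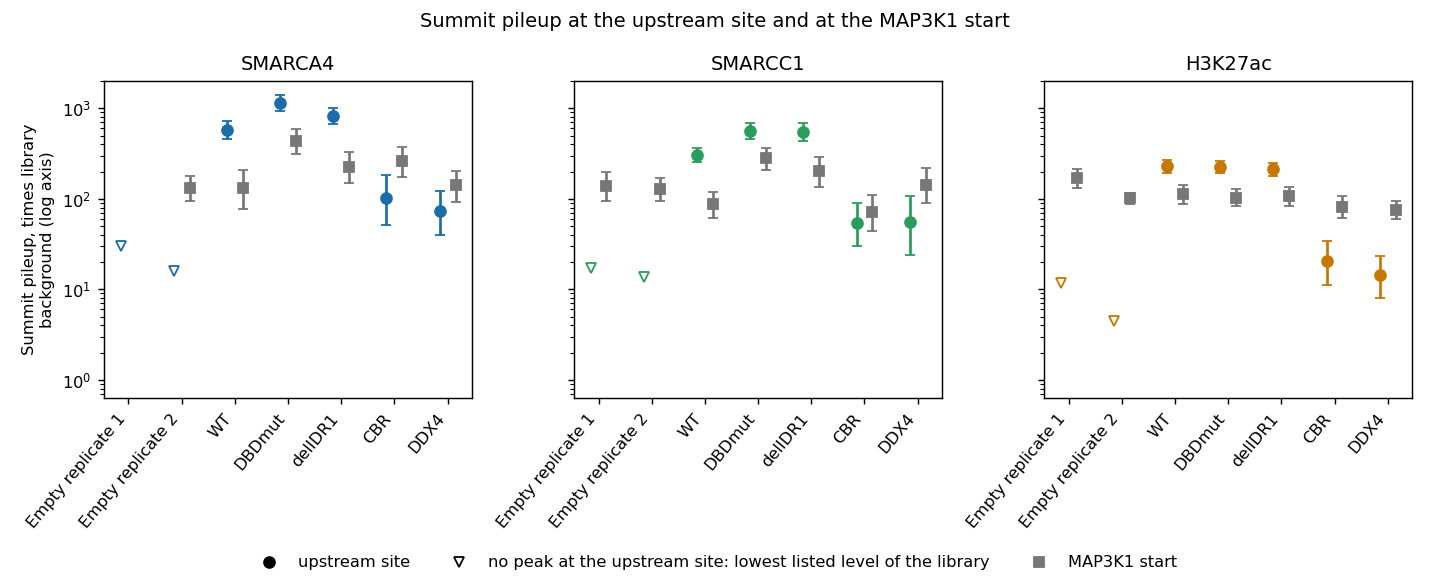
Summit pileup as a multiple of library background (log axis) at the upstream site (filled circles) and at the MAP3K1 start (grey squares) in each library, with exact 95% Poisson intervals; open triangles give the lowest level listed in an Empty library, which has no peak at the site. At the site WT, DBDmut and delIDR1 stand above the start, and CBR and DDX4 are at or below it.

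The absence of peaks in Empty could be read against what those libraries were able to list. The lowest SMARCA4 level listed was 30.1 times background in Empty replicate 1 and 15.9 times in replicate 2, and for SMARCC1 it was 17.3 and 13.7 times. The weakest levels at the site with ARID1A, 72.9 times background for SMARCA4 (DDX4) and 54.0 times for SMARCC1 (CBR), were above these limits, with lower interval bounds of 39.9 and 30.2. For H3K27ac the limit was 11.6 times background in Empty replicate 1 and 4.46 in replicate 2. The DDX4 H3K27ac level of 14.2 has an interval of 7.97 to 23.5, which includes the first of these. A SMARCA4 or SMARCC1 level like that of CBR or DDX4 would thus have been listed at the lowest local background, whereas for H3K27ac in Empty replicate 1 such a level was at the edge of detection.

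The nearest peaks in Empty were far away for the BAF subunits. In Empty replicate 1 no SMARCA4 peak was listed between −228.71 and 94.8 kb and no SMARCC1 peak between −228.52 and 0.27 kb from the MAP3K1 start. In replicate 2 the gaps ran from −228.48 to 0.25 kb for SMARCA4 and from −198.98 to −0.62 kb for SMARCC1. H3K27ac was missing from −198.34 to −26.42 kb in replicate 1, a gap of 171.92 kb. Replicate 2, the most deeply sequenced library, had H3K27ac peaks 6.1 kb to the left and 11.58 kb to the right of the site.

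A comparison within each library does not depend on library depth or on the genome-wide background, and the element at the MAP3K1 start served as the reference. For H3K27ac the reference was the highest peak within 1 kb of the start, which need not lie on that element. Its summit was at chr5:56110411 in WT but at chr5:56111261 in DDX4. For SMARCA4 the upstream site had 4.44 times the pileup of the start in WT (2.64 to 7.88), 2.63 times in DBDmut (1.82 to 3.87) and 3.65 times in delIDR1 (2.35 to 5.88). It had 0.393 times in CBR (0.176 to 0.814) and 0.519 times in DDX4 (0.251 to 1.02). For SMARCC1 the ratios were 3.49 in WT (2.43 to 5.12), 2.02 in DBDmut (1.44 to 2.86), 2.70 in delIDR1 (1.76 to 4.25), 0.750 in CBR (0.357 to 1.54) and 0.381 in DDX4 (0.146 to 0.895). For H3K27ac they were 2.03, 2.18 and 1.97 in WT, DBDmut and delIDR1, and 0.250 and 0.188 in CBR and DDX4, both with intervals below 1.

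The split between the 2 sets of constructs held with this measure, while the excess of DBDmut and delIDR1 over WT did not: their ratios to the start were below that of WT for both subunits, with overlapping intervals. Against 94.59 kb the ratio of delIDR1 was above that of WT for SMARCA4, 6.79 (3.85 to 12.9) against 4.44, and for SMARCC1, 4.76 (2.80 to 8.58) against 3.32, again with overlap. Against the elements at −229.08 kb and 94.59 kb, WT, DBDmut and delIDR1 again had every SMARCA4 and SMARCC1 ratio above 1 and CBR and DDX4 every one below 1. Of the CBR and DDX4 ratios, all 4 of SMARCA4 against these 2 elements and that of SMARCC1 in CBR against 94.59 kb had intervals that include 1. The H3K27ac ratio against −229.08 kb was 1.04 in WT (0.822 to 1.32) and 1.22 in delIDR1 (0.945 to 1.58), with intervals that include 1, and 1.43 in DBDmut (1.13 to 1.81). These reference elements were picked after their values were seen. At −229.08 kb the delIDR1 ratios use a peak with its summit at another place in the element than in the other libraries, for SMARCA4, SMARCC1 and H3K27ac.

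**Figure D4:**
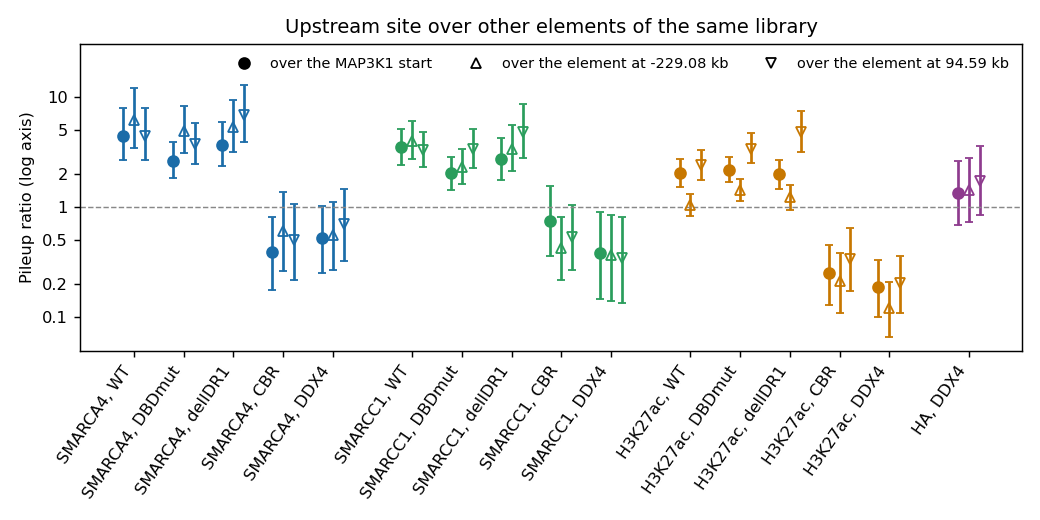
Ratio of the summit pileup at the upstream site to that of 3 reference elements in the same library (log axis, dashed line at 1), with exact 95% intervals. Ratios of WT, DBDmut and delIDR1 are above 1 and those of CBR and DDX4 below 1 for SMARCA4 and SMARCC1, and the HA ratios of DDX4 have intervals that include 1.

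The HA library reports where the tagged DDX4 hybrid itself was found, and 5 of its 5390 peaks were in the window. The highest was at the upstream site, chr5:55972102-55972459, with a fold of 13.8, a −log10 q of 22.7, a rank of 162 and a summit pileup of 24 fragments (15.4 to 35.7), 320 times background. The peak at the MAP3K1 start, chr5:56110876-56111389, had a −log10 q of 13.6 and ranked 525. The peak at chr5:55882034-55882325 had a fold of 7.81 and ranked 1040, and that at chr5:56205255-56205820 had a fold of 8.44 and ranked 1064. The weakest, chr5:56122869-56123167, had a fold of 6.20 and ranked 2794.

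Of these 5 HA peaks, 4 met a SMARCA4 or SMARCC1 peak of DDX4, as did 66.9% of all HA peaks. The exception was chr5:56122869-56123167, where SMARCC1 peaks came from Empty replicate 2 and CBR. In DDX4 cells HA at the upstream site was 1.33 times its level at the MAP3K1 start (0.694 to 2.61). SMARCA4 in the same cells was 0.519 times its own level there. The intervals of these 2 ratios overlap. HA thus ranked the upstream site first among the window's peaks, and SMARCA4 and SMARCC1 of the same construct did not: their highest peaks were at 0.32 kb and 94.87 kb.

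Set against all 4383 gained sites, few had both subunits in as many constructs as the upstream site. Both subunits were present in DBDmut at 35.5% of gained sites, in delIDR1 at 14.0%, in CBR at 5.5% and in DDX4 at 0.479%, which is 21 sites. Both subunits in all 4 mutants were present at 7 sites (0.16%), and 4 of these (0.0913%) were also under an HA peak. The other 6 of these 7 each had an H3K27ac peak in 1 or both Empty replicates. The upstream site was the only gained site with its exact pattern of presence in the 21 SMARCA4, SMARCC1 and H3K27ac lists (0.0228%). The sites chr5:98355798-98356208 and chr1:211909107-211909441 came closest. Each differed from it only by an H3K27ac peak in Empty replicate 2, the most deeply sequenced library. The first of them was also under an HA peak. The pattern was read from the upstream site itself, which was picked for its high WT ranks. Its WT and Empty entries for SMARCA4 and SMARCC1 follow from the definition of gained. How many other gained sites have a pattern of their own was not counted, so the share is a description only.

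H3K27ac lay over 89.3% of gained sites in WT, 72.4% in DBDmut and 65.5% in delIDR1. The share was 26.6% in CBR and 26.9% in DDX4, and 12.9% and 21.9% in the Empty replicates. The upstream site had the mark in the 5 constructs and in neither Empty replicate. HA peaks covered 142 gained sites (3.24%) and 67.8% of 2581 constitutive sites. Of those 142, the upstream site had the highest HA −log10 q.

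Its place among gained sites differed by construct. By −log10 q it was the first of 1969 gained sites with a SMARCA4 peak in DBDmut and of 996 in delIDR1, and the first of 2247 and 1057 for SMARCC1. In CBR it was 117th of 441 for SMARCA4 and 114th of 501 for SMARCC1, and in DDX4 it was 3rd of 80 and 104th of 209. For H3K27ac it was 37th of 3914 in WT, 9th of 3172 in DBDmut and 11th of 2871 in delIDR1, but 826th of 1164 in CBR and 783rd of 1181 in DDX4. In CBR and DDX4 few gained sites were listed at all, and the site had a SMARCA4 level of 102 times background against a median of 74.1 over the gained sites listed in CBR, and 72.9 against 39.1 in DDX4. For SMARCC1 it had 54.0 against 39.6 in CBR and 54.8 against a median of 54.8 in DDX4. Its H3K27ac was below the median in both, at 20.4 against 30.7 in CBR and 14.2 against 21.8 in DDX4.

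A smaller element lay next to the upstream site. At chr5:55973516-55973839, −137.22 kb from the start, SMARCC1 peaks were listed in WT, DBDmut and delIDR1 with folds of 4.58, 6.74 and 5.91 and pileups of 29, 35 and 24 fragments. No SMARCA4 peak was listed there in any library. H3K27ac peaks met it in the same 3 constructs, with pileups of 38, 57 and 60 fragments, and in no Empty, CBR or DDX4 list. On the other side, at chr5:55965832-55966126 (−144.92 kb), SMARCA4 of DBDmut and SMARCC1 of WT and delIDR1 had weak peaks of 4, 9 and 6 fragments. H3K27ac met that element in WT, DBDmut, delIDR1 and CBR and also in Empty replicate 2.

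The element at the MAP3K1 start, chr5:56111149-56111608, was found in 13 of the 14 SMARCA4 and SMARCC1 lists and was missing from SMARCA4 of Empty replicate 1. Its SMARCA4 pileup was 41 fragments in Empty replicate 2, 18 in WT, 41 in DBDmut, 26 in delIDR1, 27 in DDX4 and 28 in CBR. SMARCC1 gave 32 and 47 fragments in the Empty replicates, 39 in WT, 53 in DBDmut, 30 in delIDR1, 21 in DDX4 and 20 in CBR. In multiples of background SMARCC1 was 87.2 in WT, 279 in DBDmut, 203 in delIDR1, 144 in DDX4 and 71.9 in CBR. As at the upstream site, SMARCC1 of DBDmut and delIDR1 was above that of WT and SMARCC1 of CBR below it. SMARCC1 of DDX4, below WT upstream, was above it here. The intervals of CBR and DDX4 overlap that of WT. For SMARCA4 the multiples were 130 in WT, 436 in DBDmut, 226 in delIDR1, 141 in DDX4 and 259 in CBR. CBR was thus above WT for that subunit, with overlapping intervals of 172 to 375 in CBR and 77.3 to 206 in WT.

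H3K27ac was present around the MAP3K1 start in all 7 lists, over chr5:56110161-56111642. The highest summit within 1 kb of the start was 169 and 102 times background in the Empty replicates, 113 in WT, 103 in DBDmut, 108 in delIDR1, 76.0 in DDX4 and 81.8 in CBR. WT, DBDmut and delIDR1 lay between the 2 Empty replicates, and CBR and DDX4 lay below both. In these multiples WT, DBDmut and delIDR1 were above CBR and DDX4 at the start as at the upstream site, by less, but here with overlapping intervals. The intervals were 88.6 to 142 in WT, 82.3 to 128 in DBDmut and 84.1 to 136 in delIDR1. Those of CBR and DDX4 were 61.8 to 106 and 60.2 to 94.6. Raw pileups were 73, 84 and 70 fragments in WT, DBDmut and delIDR1, 56 in CBR and 80 in DDX4. Empty, without a peak upstream, was above CBR and DDX4 at the start, although the interval of replicate 2 (88.2 to 116) overlaps theirs. RNA was not measured in the files used here.

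Elements at −229.08 kb (chr5:55881215-55882430) and 94.59 kb (chr5:56205049-56205934) were found in all 14 SMARCA4 and SMARCC1 lists and under HA and H3K27ac. At −229.08 kb the SMARCA4 pileup was 18 and 42 fragments in the Empty replicates, 13 in WT, 22 in DBDmut, 18 in delIDR1, 25 in DDX4 and 18 in CBR. At 94.59 kb it was 21 and 22 in Empty, 18 in WT, 29 in DBDmut, 14 in delIDR1, 20 in DDX4 and 22 in CBR. The highest SMARCA4 peak of delIDR1 at −229.08 kb had its summit at chr5:55881566, against chr5:55882039 to chr5:55882097 in the other libraries. In multiples of background, SMARCA4 at −229.08 kb was 135 and 133 in the Empty replicates and 94.2 in WT, the lowest, with 130 to 234 in the mutants. At 94.59 kb it was 158 and 69.8 in Empty, the second of these the lowest value, 130 in WT, and 104 to 309 in the mutants. SMARCC1 at −229.08 kb was 242 (183 to 315) and 181 (140 to 230) times background in Empty and 76.1 (52.7 to 106) in WT. The WT level there was thus below both Empty replicates, with raw pileups of 56, 66 and 34. At 94.59 kb it was 104 and 95.9 in Empty and 91.7 in WT, where raw pileups were 24, 35 and 41. Neither element was consistently higher with WT than in Empty. H3K27ac at −229.08 kb was 230 and 129 times background in Empty, 220 in WT, 157 in DBDmut, 174 in delIDR1, 117 in DDX4 and 96.4 in CBR. At 94.59 kb it was 128 and 73.8 in Empty, 96.0 in WT, 66.3 in DBDmut, 44.7 in delIDR1, 69.3 in DDX4 and 59.9 in CBR. There delIDR1 was the lowest and DBDmut was below DDX4, so the order of the upstream site did not hold. The summits of these highest peaks differed in place between libraries.

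At −245.57 kb (chr5:55864832-55865828) an element was found in 10 lists. SMARCA4 was listed in WT, DBDmut, delIDR1 and CBR with 13, 9, 13 and 14 fragments. SMARCC1 was listed in Empty replicate 2 with 29 fragments, in WT with 30, in DBDmut with 34, in delIDR1 with 13, in CBR with 16 and in DDX4 with 24. The Empty replicate 2 peak is what kept this site from counting as gained: without that replicate the window had 2 gained sites. H3K27ac met the element in Empty replicate 1 with 38 fragments, WT with 70, DBDmut with 91, delIDR1 with 82 and DDX4 with 41. These are the highest peaks of each library, and of them only that of delIDR1, with its summit at chr5:55865034, lay at the WT BAF site, chr5:55864981-55865079. The other 4 of these highest peaks began at chr5:55865534 or later, at the far end of the element. Lower H3K27ac peaks of Empty replicate 1, WT and DBDmut did meet the WT BAF site, and none of DDX4 did. At the far end lay another WT SMARCC1 peak, chr5:55865545-55865822, which SMARCC1 of DBDmut also met. No H3K27ac peak of CBR met the element, and none of Empty replicate 2, the library with the most H3K27ac peaks.

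At −199.12 kb (chr5:55911612-55911952) SMARCC1 was listed in Empty replicate 2, WT, DBDmut, delIDR1 and CBR with 12, 13, 13, 13 and 8 fragments, and SMARCA4 in CBR alone with 7. H3K27ac was listed over it in every library, with 23 and 63 fragments in Empty, 51 in WT, 57 in DBDmut, 53 in delIDR1, 29 in DDX4 and 27 in CBR. At −249.44 kb (chr5:55861120-55861811) SMARCA4 was listed in both Empty replicates and WT with 14, 12 and 8 fragments, and SMARCC1 in Empty replicate 2 and DDX4 with 40 and 18. The WT SMARCA4 peak, chr5:55861627-55861730, overlapped neither Empty SMARCA4 peak. It belongs to the same element through the SMARCC1 peak of Empty replicate 2. In multiples of background SMARCA4 was 105 and 38.1 in Empty and 58.0 in WT, and SMARCC1 was 110 in Empty replicate 2 and 123 in DDX4. Its H3K27ac was listed in all 7 libraries, at 146 and 62.4 times background in Empty, 71.2 in WT, and 42.3 to 90.9 in the mutants.

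The remaining elements of 2 or 3 lists were weak. At chr5:55854220-55854520 SMARCA4 of DBDmut and SMARCC1 of WT and delIDR1 had 7, 9 and 8 fragments. At chr5:56112449-56112733 SMARCC1 of Empty replicate 2 and delIDR1 had 25 and 12, and at chr5:56125053-56125357 SMARCC1 of Empty replicate 2 and WT had 16 and 21. H3K27ac met the first in WT, DBDmut and delIDR1 with 38, 35 and 23 fragments, the second in every library but CBR with 31 to 99, and the third in every library but delIDR1 with 18 to 73. All 14 elements of at least 2 lists met an H3K27ac peak of some library, and so did 13 of the 15 in 1 list. A peak in any 1 of the 7 H3K27ac lists was enough for this. The share over the genome was not counted, so these counts cannot be read as particular to the locus. Of those 15, 4 came from SMARCC1 of Empty replicate 2, 3 each from SMARCC1 of WT and of DBDmut, and the rest singly from 5 other lists.

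H3K27ac was the most abundant mark of the window, with 34 and 54 peaks in the Empty replicates, 43 in WT, 45 in DBDmut, 30 in delIDR1, 30 in DDX4 and 29 in CBR. With lists of equal length Empty replicate 2 had 22, the fewest, and WT 27. The peaks of the full lists formed 76 elements, of which 8 were found in all 7 lists and 32 in a single list, which for 19 was that of Empty replicate 2. In all, 23 of the 76 met an element with SMARCA4 or SMARCC1, a share that was not counted over the genome. Of the 43 WT peaks, 11 lay where neither Empty replicate had the mark, a share below the 40.0% over all WT peaks. Found again in the mutants were 6 of the 11 in DBDmut, 4 in delIDR1, 3 in DDX4 and 2 in CBR. Over all such WT peaks the shares were 41.2% in DBDmut, 33.1% in delIDR1, 7.5% in DDX4 and 7.7% in CBR. In the opposite direction, 7 of 27 H3K27ac peaks of Empty replicate 1 that were shared with replicate 2 met no WT peak, where the share over the list was 20.2%.

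The 2 WT elements absent from Empty and present in CBR were the upstream site and one at chr5:55932798-55933921, both also present in DDX4. This second element had no SMARCA4 or SMARCC1 peak in any list. Its H3K27ac pileup was 41 fragments in WT, 49 in DBDmut, 50 in delIDR1, 23 in DDX4 and 14 in CBR, or 63.5, 60.2, 77.0, 21.8 and 20.4 times background. The same separation of WT, DBDmut and delIDR1 from CBR and DDX4 was thus listed at a place without a BAF peak.

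Other H3K27ac elements away from the named BAF elements varied less regularly. At chr5:55903812-55904715 the pileup was 45 fragments in WT, 25 in DBDmut, 14 in delIDR1 and 20 in DDX4, with no Empty or CBR peak. Peaks at chr5:56052702-56053181 in Empty replicate 2 (28 fragments) met peaks of WT with 22, DBDmut with 12, CBR with 16 and DDX4 with 14. At chr5:56246417-56246702 in Empty replicate 1 (29 fragments) the mark was listed in all 7 libraries, with 28 in WT. After the start, at chr5:56122899-56123282 in WT, the mark had 41 fragments, and it was also listed in both Empty replicates, DBDmut, CBR and DDX4. Among elements absent from WT, that at chr5:56213317-56214416 was found in the 6 other lists, with 11 and 30 fragments in the Empty replicates, 11 in DBDmut, and 21 each in delIDR1, CBR and DDX4. The element at chr5:56196102-56196919 was found in both Empty replicates, DBDmut, delIDR1 and DDX4, with 12 to 29 fragments. The element at chr5:56013133-56013827 had 25 fragments in Empty replicate 2 and 10 to 13 in the mutants. Empty replicate 2 and DDX4 shared a peak at chr5:56121350-56121697 with 66 and 28 fragments, and at chr5:56292188-56292370 Empty replicate 2 alone had 20. WT thus lacked a listed peak at some places where Empty had one.

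By segment, WT differed from Empty replicate 1 in H3K27ac mainly upstream of the gene. Between 180 and 100 kb before the start, a stretch bounded after the values were seen, the peaks covered 0 bp in Empty replicate 1, 3456 in replicate 2, 3897 in WT, 4943 in DBDmut, 4451 in delIDR1, 1449 in DDX4 and 2063 in CBR. Empty replicate 1 and WT shared a stamp. Their estimated depth was 4.40 and 4.49 fragments per kb, but their background pileup was 0.431 and 0.646 and their lists held 36348 and 50885 peaks. Empty replicate 2 had 14.5 fragments per kb, a background pileup of 2.02 and another stamp. More than 80 kb after the start the same libraries covered 2188, 6919, 2210, 3580, 2503, 4639 and 3418 bp, with WT near Empty replicate 1. The part of depth and stamp in these lengths was not tested.

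Over the whole window, H3K27ac peaks covered 808 and 686 bases per Mb of peaks in the Empty replicates. The values were 854 in WT, 1098 in DBDmut, 1026 in delIDR1, 868 in DDX4 and 850 in CBR, each above both Empty replicates. Whether other windows separate in this way was not examined. In window peaks per 10000 of the list the groups overlapped. The Empty replicates had 9.35 and 5.87. WT had 8.45, DBDmut 11.5, delIDR1 9.45, DDX4 8.27 and CBR 7.07. By peak length, the mean of the 5 libraries with ARID1A was 939 ± 115 (SD, n = 5), against 747 ± 86.5 (SD, n = 2) in Empty. The difference of 192 bases per Mb had a two-sided exact permutation p of 0.0952 over 21 labelings, where the smallest p possible was 0.0476, and it did not pass 0.05. The 5 libraries are 5 different forms of ARID1A and not replicates of 1 construct. The window was chosen for a site with BAF peaks in WT and none in Empty. H3K27ac lay over 89.3% of gained sites in WT, against 12.9% and 21.9% in the Empty replicates. The choice of the window thus favours a higher share with ARID1A, and the p does not allow for it.

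**Figure D5:**
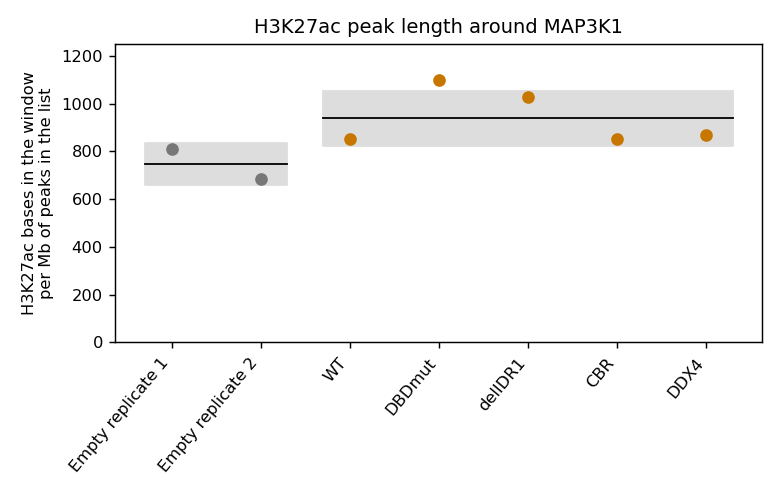
H3K27ac bases in the window per Mb of peaks in each list (points), with the mean of each group (line) and 1 SD to either side (grey band) for Empty (n = 2) and the 5 forms of ARID1A. The 5 points on the right lie between 850 and 1098, above 808 and 686 for Empty.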

How the data were processed

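CUT&Tag peak lists of 22 libraries were used, and their titles gave construct and antibody. Per the submitters' processing notes the build was hg19 and bcl2fastq was used. Not given in the sources used here were the aligner, the peak caller, how duplicates were treated and whether a control was used. The authors did not pool replicates, as there was 1 list per library. The authors deposited per peak a fold enrichment (a ratio over local background), the −log10 of its p-value and of its q-value, a score that follows the −log10 q, and the summit's offset from the peak start.

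Fold and p-value together fix a peak's pileup, if p is a Poisson tail, and pileups came out whole (tolerance 0.001 in −log10 p) for 99.677% or more of the peaks of each library and for all 388 peaks of the window. The lowest background shared by at least 50 peaks served as library background, and divided by the shortest peak it gave fragments per kb. These are estimates, and the lists give no total depth. Ratios of 2 pileups have exact intervals conditional on their sum. PCR copies are not independent molecules, so intervals and limits cover counting error only. Code was tested on simulated data.

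Peaks sharing at least 1 bp overlapped. For the H3K27ac share, Empty and the 5 forms of ARID1A were set against each other in an exact permutation test (two-sided). The members, the lists and the named sites were chosen with earlier results of these data known. Named were the 12 BAF elements found in most lists, the H3K27ac elements at them, at the start, and 5 others highest in WT or absent from WT and every HA peak. Alternatives were each subunit alone, leaving out libraries, summits no more than 250 bp apart, 50% of the shorter peak as the least overlap, equally long lists, and only peaks with −log10 q from 5. No hg19 genome or annotation was used, so no sequence or gene part is given and the MAP kinase gene list was not used. The position of the MAP3K1 start was taken as given with the window. Python 3.11.15, numpy 2.4.6, scipy 1.17.1, pandas 2.3.3 and matplotlib 3.10.9 were used.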

Additional observations from a re-analysis of the deposited data

How the results depend on the processing

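The upstream site was gained under each alternative run. No paired analysis was possible because replicate numbers exist only for Empty. With either Empty replicate left out, gained sites in the window numbered 1 to 2, those with both subunits in DBDmut, delIDR1 and CBR 1 to 2 each, and those under H3K27ac 0 to 1 in Empty replicate 1 and 1 to 2 in WT, DBDmut and delIDR1. The higher values came without replicate 2. From SMARCA4 peaks alone 4 sites were gained, of which 2 each were found in DBDmut, delIDR1 and CBR, and H3K27ac lay over 2 and 1 in the Empty replicates, 4 each in WT, DBDmut and delIDR1, 2 in CBR and 3 in DDX4. From SMARCC1 peaks alone 8 were gained, of which 3 were found in DBDmut and 4 in delIDR1, and H3K27ac lay over 1 and 2 in the Empty replicates, 7 in WT, 6 in DBDmut, 5 in delIDR1, and 2 each in CBR and DDX4. Counting single subunits admits more sites by construction. The H3K27ac difference kept its direction in all 10 alternatives. Its exact permutation p was 0.0952 with a −log10 q of at least 5 and with equally long lists, and 0.381 for peak numbers. The 7 alternatives that leave out a library had 6 or 15 labelings and could not reach 0.05, so their p says nothing about stability. With lists of equal length, SMARCA4 peaks in the window fell to 4 each in WT and DBDmut, SMARCC1 peaks to 6 in WT and 8 each in DBDmut and Empty replicate 2, and H3K27ac peaks to 27 in WT and 22 in Empty replicate 2. With fragments per kb as the scale, the SMARCA4 ratio of DDX4 to WT at the upstream site went from 0.126 to 0.221, near the upper bound of its interval (0.224). The other ratios moved by less in proportion. Among them, the H3K27ac ratio went from 0.981 to 1.19 in DBDmut and from 0.928 to 1.17 in delIDR1. Both passed from below WT to above it, near their upper bounds of 1.23 and 1.18.

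Each construct is 1 library, so constructs were compared within counting error alone. The lists do not show signal below their thresholds, and an unlisted place is not a place without signal.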
